A study of Bos taurus with 5 samples.

Results

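The distal block of bovine chromosome 5 holds the genes from 95 Mb to the last locus of the chromosome, which ends at position 125753509 in the deposited coordinates. Members were taken by position, as every assembled locus on chromosome 5 with its midpoint beyond 95 Mb, and 544 of the 31898 loci of the assembly fell there, with 1234 of the 72812 transcripts. The block itself was chosen on measured values, namely the number of loci in the 1 Mb window ending at 110 Mb that were at least 2-fold higher in the 75C library than in the 50CSH library. The difference between these libraries in that window is therefore given as a description, with no test.

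White cells of peripheral blood from 5 cattle populations were sequenced as poly(A) RNA, with 1 library for each population. N and H are the purebred libraries, letters that the labels leave unexplained. The design text speaks of Iranian native cattle and Holstein cattle as the parents. Of the crossbred libraries, 75C has 75% Holstein and 25% Iranian native blood, 50CSN has 50% of each with a native sire and a Holstein dam, and 50CSH has 50% of each with a Holstein sire and a native dam. The labels do not say whether a library is 1 animal or a pool. With 1 library a population, a difference between populations has no replicate check, and it cannot be told apart from a difference between the animals or the library preparations. In whole leukocytes, fewer cells of a type and less RNA per cell cannot be told apart either. The files carry no gene names, so the leukocyte label could not be checked against marker genes.

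In the cattle genome the distal end of chromosome 5 is rich in genes of the immune system. In the ARS-UCD2.0 gene order it runs from a cluster of lectin-like receptors of natural killer and myeloid cells, KLRK1, KLRD1, CLEC7A and the activation marker CD69, through the T cell surface proteins CD4, LAG3 and CD27, to GRAP2, an adaptor of T cell receptor signalling, TNFRSF13C, a receptor for a B cell survival factor, and RABL2B near the tip. Crossbreeding joins haplotypes of the parental breeds, and expression of neighbouring genes can then follow the haplotype that an animal carries, besides the mix of cells in its blood. These names are background only: the deposited tables pair no locus with a symbol, so the members below are given by locus, position and Ensembl transcript ID, and no function is assigned to them.

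Of the 544 members, 269 averaged 1 FPKM or more across the 5 libraries and were compared, among 13871 such loci in all. FPKM counts fragments for each kilobase of a transcript and is scaled to how many fragments mapped in that library. The compared members hold 220 loci with an Ensembl transcript ID and 49 without, and 84 of them have a single transcript. A further 275 members were under the minimum, 116 of them listed at 0 in all 5 libraries. The block is gene dense, with a median of 20 annotated loci in the 1 Mb around a compared member against 15 over all compared loci. The protocol names no step that marks strand, and 72 compared members share their span with another compared locus, so reads of such overlapping loci cannot be told apart with certainty.

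The members took 2.06% of the summed FPKM in N and 2.05% in H, with 2.02% in 75C, 1.64% in 50CSH and 1.66% in 50CSN. The purebred libraries and 75C thus lay close together, and the 50% crosses lay lower. That order of the shares rested on 1 locus. XLOC_023615, an unannotated locus of 134 nt at 112694293 to 112694426, was listed at 3904 FPKM in N and 4770 in H, with 6268 in 75C, 2025 in 50CSH and 2607 in 50CSN, and made up 15.6% to 36.8% of the members' sum. Without it the shares were 1.53% in N and 1.40% in H, with 1.28% in 75C, 1.39% in 50CSH and 1.35% in 50CSN. The share of N still holds XLOC_022692, at 980 FPKM in N and listed at 0 in every other library. The median compared member stood at 12.3 FPKM in N and 11.4 in H, with 12.3 in 75C, 9.98 in 50CSH and 10.1 in 50CSN. Over all compared loci the median was 10.9 in N and 10.7 in H, with 10.9 in 75C, 10.4 in 50CSH and 10.3 in 50CSN. The 50% crosses were thus the lowest there too.

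The 7 members described here were each the most abundant of their 1 Mb window, and they are not the 7 highest of the block. XLOC_022649 (114132092 to 114198084, ENSBTAT00000026400) was at 1334 FPKM in N and 1161 in H, with 1658 in 75C, 1997 in 50CSH and 2214 in 50CSN, with all 3 crossbreds above both purebreds. XLOC_023366 (117900270 to 117906537, ENSBTAT00000004188) was at 761 in N and 604 in H, with 819 in 75C, 1008 in 50CSH and 1229.8 in 50CSN. XLOC_022531 (101897667 to 101916582, ENSBTAT00000007933) was even, at 719.7 in N and 855 in H, with 844 in 75C, 754 in 50CSH and 737 in 50CSN. XLOC_023280 (108136718 to 108170197, ENSBTAT00000059608) was at 462 in N and 488.5 in H, with 484 in 75C, 626 in 50CSH and 617 in 50CSN, so the 50% crosses were the highest. XLOC_022739 (121103387 to 121116024, ENSBTAT00000024060) was at 504 in N and 578 in H, with 398 in 75C, 413 in 50CSH and 422 in 50CSN, with all 3 crossbreds below the purebreds. XLOC_022731 (120198466 to 120202165) was at 96.9 in N and 132 in H, with 168 in 75C, 180.3 in 50CSH and 179 in 50CSN, with the crossbreds on top. XLOC_022701 (118118330 to 118120421) was the most even, at 286 in N and 299 in H, with 291 in 75C, 309 in 50CSH and 315 in 50CSN. Among these 7 loci no library stood 2-fold from another except 50CSN against H at XLOC_023366. The 7 leave out XLOC_023615, the most abundant member, which had a log2 difference of 1.63 between 75C and 50CSH. They also leave out XLOC_022692, at 980 FPKM in N and listed at 0 in the other 4 libraries.

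Between 75C and 50CSH, 22 of the 269 members (8.18%) were at least 2-fold higher in 75C, where 2.54% of all compared loci were, and 3 members (1.12%) were at least 2-fold lower, against 1.07% of all loci. By transcript the split was 52 higher and 34 lower, and the shares over all transcripts are not given. Folds are on the log2(FPKM + 1) scale, which understates the difference at low loci. Nothing is read from the higher share, since this contrast chose the block. The window ending at 110 Mb held 8 of the 22, out of 18 compared loci, and none of the 3. The other 251 members held 14 (5.58%). Over all 269 members the median log2 difference was 0.06, against 0.03 over all compared loci, and in the window it was 0.91.

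**Figure D1:**
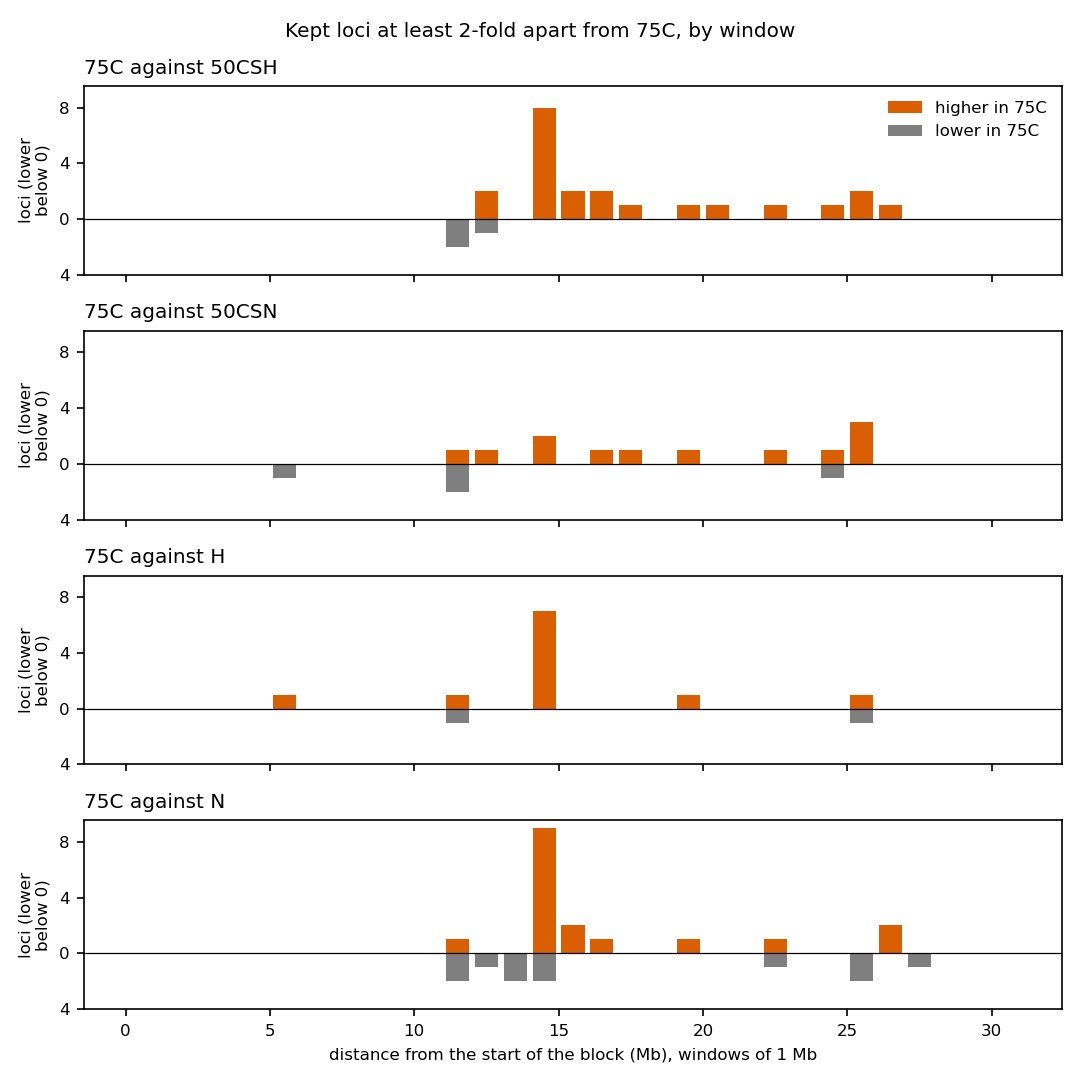
Number of compared members at least 2-fold higher (bars above 0) or lower (bars below 0) in 75C than in each other library, in 1 Mb windows by distance in Mb from the start of the block. Against 50CSH the window ending at 110 Mb, the tallest bar, holds 8 higher loci, and no other window holds more than 2.

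The windows around it held fewer such loci. From 106 to 107 Mb, 17 loci were compared, none was 2-fold higher in 75C and 2 were lower. From 107 to 108 Mb, 2 of 19 were higher and 1 lower, and from 108 Mb to the start of the window none of 15 was 2-fold apart. On the other side, 2 of 11 were higher from 110 to 111 Mb, 2 of 4 from 111 to 112 Mb, where the median log2 difference was 1.20, and 1 of 7 from 112 to 113 Mb, none lower. Towards the tip, 2 of the 24 loci from 120 to 121 Mb were higher in 75C, and the windows starting at 114, 115, 117, 119 and 121 Mb held 1 each. In all, 11 of the windows held a locus higher in 75C.

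The level of the window also moved between the libraries. The median of its 18 loci was 2.99 FPKM in N and 4.50 in H, with 7.08 in 75C, 3.53 in 50CSH and 5.30 in 50CSN. The 1 Mb before it had medians of 12.6 in N and 10.3 in H, with 10.7 in 75C, 11.3 in 50CSH and 7.89 in 50CSN, so there 75C was not the highest. From 110 to 111 Mb the medians were 6.25 in N and 9.85 in H, with 9.24 in 75C, 4.79 in 50CSH and 5.35 in 50CSN, with H and 75C above the rest. Within the window, 75C was the highest of the 5 libraries at 13 of 18 loci, and N or 50CSH was the lowest at 7 loci each. Over all 269 members 75C was the highest at 58, and over all 13871 compared loci at 2506.

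The 8 loci lay in 3 groups along the window. The first was a pair on 1 span, from 109006287 to 109087560. XLOC_022601 there was at 15.3 FPKM in N and 15.9 in H, with 16.9 in 75C, 7.77 in 50CSH and 11.3 in 50CSN, with a log2 difference of 1.03 between 75C and 50CSH. XLOC_022602 was at 14.1 in N and 12.5 in H, with 12.5 in 75C, 4.32 in 50CSH and 7.40 in 50CSN, a difference of 1.35. At both loci the purebreds stood near 75C, and both 50% crosses were lower, with 50CSH the lowest. The other compared locus of that span, XLOC_023292 (ENSBTAT00000004154), was far more abundant and nearly even, at 127 in N and 130.0 in H, with 154 in 75C, 138 in 50CSH and 142 in 50CSN.

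The second group was a run of 5 neighbouring loci from 109237926 to 109311181, picked out after its values were seen. The loci are separated by 100, 8491, 83 and 37875 nt, and 4 of them have no Ensembl ID. XLOC_022604 (109237926 to 109260040) was at 4.52 FPKM in N and 6.89 in H, with 20.5 in 75C, 3.90 in 50CSH and 9.70 in 50CSN. Here 75C was more than 2-fold above every other library, and the log2 difference from 50CSH was 2.13. XLOC_023607 (109260141 to 109260454) was at 1.45 in N and 3.45 in H, with 13.5 in 75C, 4.00 in 50CSH and 9.84 in 50CSN, a difference of 1.54 from 50CSH. XLOC_023608 (109268946 to 109269656) was at 2.10 in N and 2.29 in H, with 6.99 in 75C, 1.38 in 50CSH and 3.46 in 50CSN, a difference of 1.75. Both of these are single assembled transcripts, with 50CSN next below 75C. XLOC_023296 (109269740 to 109270868) was at 1.41 in N and 1.28 in H, with 5.35 in 75C, 1.31 in 50CSH and 3.36 in 50CSN, a difference of 1.46. XLOC_022605 (109308744 to 109311181, ENSBTAT00000042897), the annotated locus of the run, was at 2.89 in N and 9.06 in H, with 22.05 in 75C, 3.41 in 50CSH and 8.27 in 50CSN. Its log2 difference of 2.39 was the largest of the window.

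Across the run the order of the libraries was alike in part. The lowest library was N at 2 loci, 50CSH at 2 and H at 1. 75C was the highest at all 5 loci, 50CSN exceeded N at all 5, and 50CSN exceeded 50CSH at all 5. The medians of the run were 13.5 FPKM in 75C, 8.27 in 50CSN, 3.45 in H, 3.41 in 50CSH and 2.10 in N. Neighbouring unannotated loci may be pieces of 1 transcript, which was not tested, so the 5 are not counted as separate observations.

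The last of the 8 was XLOC_022615 (109869549 to 109920886), with 3 Ensembl IDs. It was at 0.459 FPKM in N and 2.43 in H, with 5.24 in 75C, 1.28 in 50CSH and 2.89 in 50CSN, a log2 difference of 1.45. The order matched that of XLOC_022605 for the highest and lowest libraries. XLOC_022601, at 1.03, was just inside the 2-fold threshold. XLOC_023294 (109087936 to 109098762) and XLOC_022614 (109828777 to 109863685), both at 0.91, were just outside it.

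**Figure D2:**
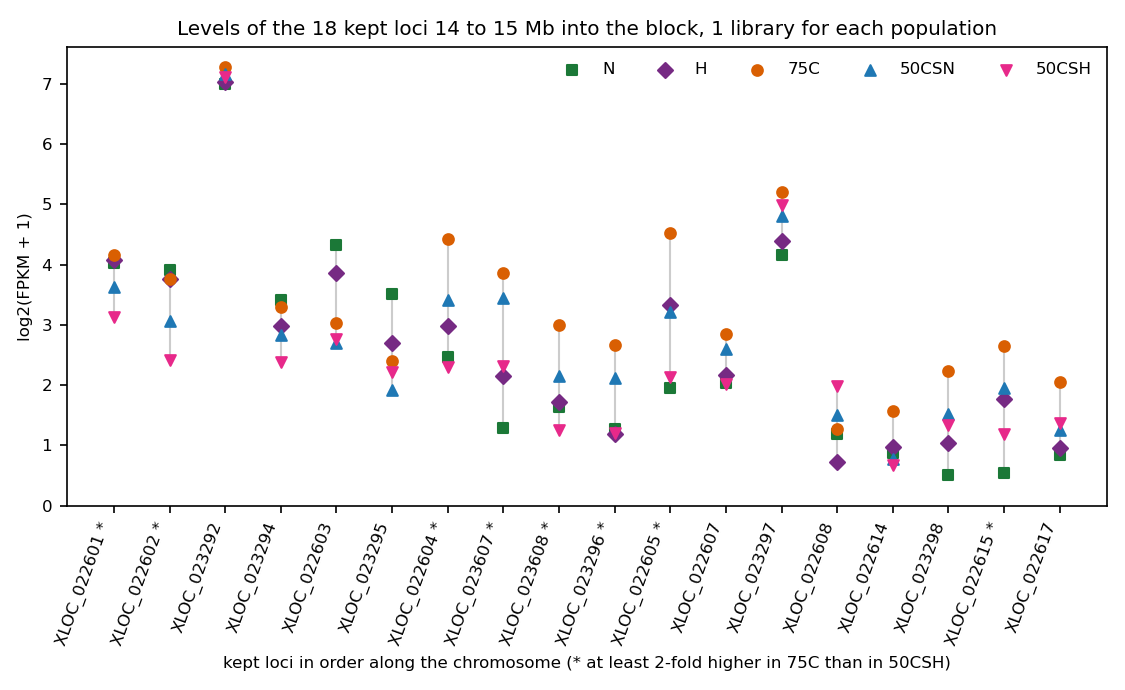
Level, as log2(FPKM + 1), of the 18 compared loci of the window in the 5 libraries, in order of position, with an asterisk at the 8 loci at least 2-fold higher in 75C than in 50CSH. At the run of 5 neighbouring loci the 75C points lie above those of all other libraries.

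The other loci of the window did not all follow 75C. XLOC_022603 (109174688 to 109210153, ENSBTAT00000026215) was at 19.1 FPKM in N and 13.5 in H, with 7.18 in 75C, 5.78 in 50CSH and 5.51 in 50CSN, so the purebreds stood above all 3 crossbreds. Its neighbour XLOC_023295 (109214994 to 109222472) was at 10.5 in N and 5.50 in H, with 4.30 in 75C, 3.65 in 50CSH and 2.78 in 50CSN, in the same order of purebreds over crossbreds. These loci lie immediately before the run in which 75C was high. XLOC_022608 (109507614 to 109511914) was the 1 compared locus of the window lower in 75C than in 50CSH, at 1.27 in N and 0.659 in H, with 1.40 in 75C, 2.95 in 50CSH and 1.82 in 50CSN. The remaining loci outside the threshold ranged up to 0.91 in log2 difference.

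Just beyond 110 Mb, neighbouring loci showed another order of the libraries. XLOC_022618 (110025794 to 110052844) was at 4.21 FPKM in N and 15.0 in H, with 20.5 in 75C, 4.79 in 50CSH and 20.2 in 50CSN. XLOC_022619, 425 nt further on (110053270 to 110056430, ENSBTAT00000021058), was at 1.34 in N and 9.87 in H, with 9.24 in 75C, 2.97 in 50CSH and 12.7 in 50CSN. At both, H, 75C and 50CSN were high and N and 50CSH were low, whereas in the run 50CSN and H stood below 75C. H against N differed here by 1.62 and 2.22 on the log2 scale, and 50CSH was below 50CSN by -1.88 and -1.79. Of the crosses, 50CSN has a native sire and 50CSH a Holstein sire, and with 1 library each the direction of the cross cannot be told apart from the animals.

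The next loci kept part of that order at low levels. XLOC_022620 (110084748 to 110112146) was at 0.809 FPKM in N and 0.703 in H, with 1.69 in 75C, 0.518 in 50CSH and 2.09 in 50CSN, and XLOC_022621 (110113033 to 110117593, ENSBTAT00000016516) at 0.928 in N and 0.785 in H, with 2.30 in 75C, 0.696 in 50CSH and 2.36 in 50CSN. At both, 75C and 50CSN were the high libraries and H stood with N and 50CSH. Beyond them XLOC_022629 (110666264 to 110697958, ENSBTAT00000019602) was highest in the 50% crosses, at 15.1 in N and 14.3 in H, with 18.5 in 75C, 21.3 in 50CSH and 20.2 in 50CSN.

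The other members at least 2-fold apart between 75C and 50CSH were scattered, and the abundant XLOC_023615 described above was among those higher in 75C. XLOC_022735 (120629286 to 120629435) was at 44.5 FPKM in 75C and 54.8 in N, and XLOC_023639 (120467528 to 120506263) at 5.84 in 75C, 4.16 in H and 2.45 in N. Both were listed at 0 in 50CSH and in 50CSN, XLOC_022735 also in H, so no fold is given. The loci that follow were above 0 in all 5 libraries. XLOC_022654 (114694562 to 114963596) was at 12.4 FPKM in N and 3.12 in H, with 27.7 in 75C, 2.71 in 50CSH and 2.81 in 50CSN, so N and 75C were high and the other 3 were level. XLOC_023360 (117480208 to 117486671, ENSBTAT00000037671) was at 7.42 in N and 51.1 in H, with 56.9 in 75C, 10.2 in 50CSH and 18.5 in 50CSN, with H and 75C far above N. XLOC_023393 (119965722 to 119966366) was at 41.5 in N and 35.2 in H, with 36.5 in 75C, 9.39 in 50CSH and 5.78 in 50CSN, low in both 50% crosses. That locus shares its span and Ensembl ID with XLOC_022723, listed at 7.46 in 50CSN and at 0 elsewhere, so the split of its reads is uncertain. XLOC_022634 (111097633 to 111209709) was at 6.52 in N and 8.76 in H, with 14.7 in 75C, 3.23 in 50CSH and 6.63 in 50CSN. XLOC_023597 and XLOC_023596, unannotated loci of 1 span (107365142 to 107413308), were at 0.349 and 0.30 in 50CSH and at 1.72 or more in each other library. XLOC_022741 (121490250 to 121571362, ENSBTAT00000029307) was at 12.1 in N and 18.3 in H, with 29.0 in 75C, 7.33 in 50CSH and 14.2 in 50CSN, and XLOC_023339 (115834637 to 115845830) at 12.3 in N and 18.7 in H, with 18.2 in 75C, 8.22 in 50CSH and 11.8 in 50CSN. The lowest library was 50CSH at both. The 3 members lower in 75C were XLOC_022564, XLOC_023265 and XLOC_022584, from 106 to 108 Mb. XLOC_022564 (106326277 to 106341331) was at 9.58 in N and 2.68 in H, with 2.004 in 75C, 6.88 in 50CSH and 3.09 in 50CSN.

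The other pairs of libraries were not used to choose the block, although they share libraries with the pair that was. Against H, 75C was at least 2-fold higher at 11 members (4.09%; 1.65% of all loci) and lower at 2 (0.743%; 1.87%). At 1.5-fold that split was 23 higher and 20 lower, and by transcript 32 and 20, with the matching shares over the whole assembly not given. The window ending at 110 Mb held 7 of the 11, and the other 251 members held 4 (1.59%), near the share over all loci. Against N, 75C was higher at 17 (6.32%; 2.09%) and lower at 11 (4.09%; 2.62%), and 9 of the 17 and 2 of the 11 lay in the window. Against 50CSN, 75C was higher at 12 (4.46%; 2.22%) and lower at 4 (1.49%; 1.36%), with 2 of the 12 in the window. In each pair with 75C the median log2 difference of the window exceeded that of all members: 0.75 against 0.02 for H, 0.93 against -0.04 for N and 0.54 against 0.07 for 50CSN. No chance test was made, and the 3 comparisons share the 75C library. Values of 75C in this window helped to choose the block, so the window's counts and medians here are a description.

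**Figure D3:**
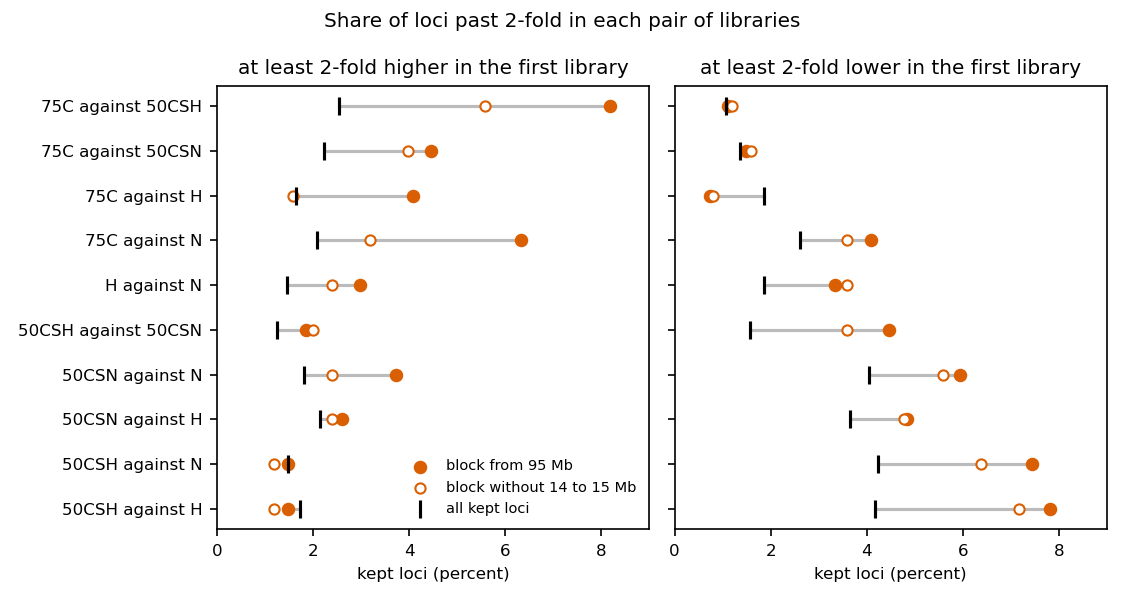
Share of compared members, in percent, that were at least 2-fold higher or lower in each of the 10 pairs of libraries, beside the same share without the window ending at 110 Mb and over all 13871 compared loci. 75C against 50CSH has the largest share of higher members, 8.18% against 2.54%. This contrast chose the block, so nothing is read from that share.

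In each comparison of a 50% cross with a purebred, more members were lower than higher in the cross. The same held over all compared loci, so this direction is not particular to the block. 50CSH was lower than H at 21 members (7.81%; 4.17% of all loci) and higher at 4 (1.49%; 1.73%). It was lower than N at 20 (7.43%; 4.24%) and higher at 4 (1.49%; 1.48%). 50CSN was lower than N at 16 (5.95%; 4.04%) and higher at 10 (3.72%; 1.82%), and lower than H at 13 (4.83%; 3.66%) and higher at 7 (2.60%; 2.15%). The window ending at 110 Mb held 4 of the 20 members lower in 50CSH than in N, 3 of the 21 lower than in H, and 4 of the 10 higher in 50CSN than in N. Values of 50CSH in this window helped to choose the block, so its counts for 50CSH are a description. The largest count of members lower in 50CSH than in N was 5, from 120 to 121 Mb.

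Between the purebreds, H was higher than N at 8 members (2.97%; 1.46% of all loci) and lower at 9 (3.35%; 1.86%). Among members above 0 in all 5 libraries, the largest differences with H higher were at XLOC_023360, 2.63 on the log2 scale, and XLOC_022619. XLOC_022692, XLOC_022735 and XLOC_023237 were listed at 0 in H and above 0 in N. XLOC_023409 (120987966 to 121037511, ENSBTAT00000015956) was at 3.81 FPKM in N and at 9.80 to 18.2 in the other 4 libraries, a difference of 1.41 between H and N. In the other direction, XLOC_022571 (106860554 to 106879114) was at 17.3 in N and 5.11 in H, with 5.74 in 75C, 10.7 in 50CSH and 8.47 in 50CSN. XLOC_023646, an unannotated locus at 120758569 to 120758745, was at 38.8 in N and at 4.71 to 14.6 in the others. At both, N was the highest of the 5.

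Between the reciprocal 50% crosses, 50CSH was higher than 50CSN at 5 members (1.86%; 1.25% of all loci) and lower at 12 (4.46%; 1.56%). The window held 3 of the 12 and none of the 5, which is a description, since values of 50CSH in this window helped to choose the block. Its locus XLOC_022604 was among the 6 lowest differences of members above 0 in all 5 libraries, at -1.13. The largest difference in the other direction was at XLOC_023600, an unannotated locus at 108027084 to 108027319, listed at 13.5 FPKM in N and 8.49 in H, with 6.16 in 75C, 11.7 in 50CSH and 2.94 in 50CSN, a log2 difference of 1.69. XLOC_023591 (106988476 to 107001578) followed, at 0.522 in 50CSN and 3.40 in 50CSH, and shares its span with XLOC_023265, at 4.10 and 10.5.

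The 3 crossbred libraries were compared with the 2 purebred libraries, which is the comparison here with more than 1 library a side. The populations stand in for replicates, so its p-values measure the spread between these 5 samples. By limma, 0 of 269 members passed an adjusted p of 0.05, where 4 of all compared loci did (0.0288%). At an unadjusted limma p of at most 0.05, 28 members (10.4%) were higher in the crossbreds, near the 9.86% of all loci, and 39 (14.5%) were lower, against 11.9%. The crossbred and purebred values did not overlap at 40 members (14.9%) that were higher in the crossbreds, against 21.0% of all loci, and at 66 (24.5%) that were lower, against 22.3%. The smallest exact permutation p for 3 libraries against 2 is 0.1, which is above the threshold. The median log2 difference was -0.07 over the members and -0.01 over all compared loci.

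Of the 6 members lowest in the crossbreds without overlap, 4 are annotated loci, described here, and XLOC_023295 of the window and the unannotated XLOC_023649 are the others. XLOC_022538 (102224679 to 102430042) was at 46.2 FPKM in N and 51.8 in H, with 27.2 in 75C, 15.9 in 50CSH and 17.5 in 50CSN, a log2 difference of -1.27 (SE 0.23, limma adjusted p = 0.111). XLOC_022603, described above in the window, had -1.26 (SE 0.18), given as a description since values in this window chose the block. XLOC_022576 (107285802 to 107297187, ENSBTAT00000005975) was at 11.2 in N and 11.9 in H, with 5.56 in 75C, 4.10 in 50CSH and 5.36 in 50CSN, a difference of -1.07 (SE 0.15, limma adjusted p = 0.110). In each of these the highest crossbred was below the lowest purebred. XLOC_023402 (120467528 to 120506263, ENSBTAT00000006606) was at 54.1 in N and 46.3 in H, with 25.1 in 75C, 22.9 in 50CSH and 33.6 in 50CSN, a difference of -0.88 (SE 0.18, limma adjusted p = 0.119).

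Of the 6 members highest in the crossbreds without overlap, 4 lay in the window ending at 110 Mb. Of the 18 loci there, 6 were higher in the crossbreds without overlap and 3 were lower. Over all compared loci 21.0% were higher and 22.3% lower. The crossbreds include 75C, whose values in this window chose the block, so these loci are a description and their p-values are not given. XLOC_023607 of the run had a log2 difference of 1.48, or 1.16 without 75C. XLOC_023297 (109457808 to 109501596, ENSBTAT00000052910) was at 17.0 FPKM in N and 20.0 in H, with 36.0 in 75C, 30.9 in 50CSH and 27.1 in 50CSN, a difference of 0.73, or 0.63 without 75C. XLOC_023298 (109828777 to 109863685) was at 0.424 in N and 1.05 in H, with 3.70 in 75C, 1.54 in 50CSH and 1.88 in 50CSN, and XLOC_022617 (109981287 to 109984412, ENSBTAT00000021057) at 0.784 in N and 0.930 in H, with 3.15 in 75C, 1.58 in 50CSH and 1.40 in 50CSN. At these loci 75C was the highest library, as in the run. XLOC_023297 and XLOC_023298 each share span and an Ensembl ID with another compared locus where the groups overlap, so the split of reads is uncertain. XLOC_022607, beside XLOC_023297, was at 3.09 in N and 3.50 in H, with 6.21 in 75C, 3.06 in 50CSH and 5.08 in 50CSN. XLOC_022614, beside XLOC_023298, was at 0.83 in N and 0.96 in H, with 1.98 in 75C, 0.59 in 50CSH and 0.70 in 50CSN. The other 2 of the 6 were XLOC_022649, with 0.64 (SE 0.18, limma adjusted p = 0.148), and XLOC_022563 (106309651 to 106320137, ENSBTAT00000025615), with 0.65.

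**Figure D4:**
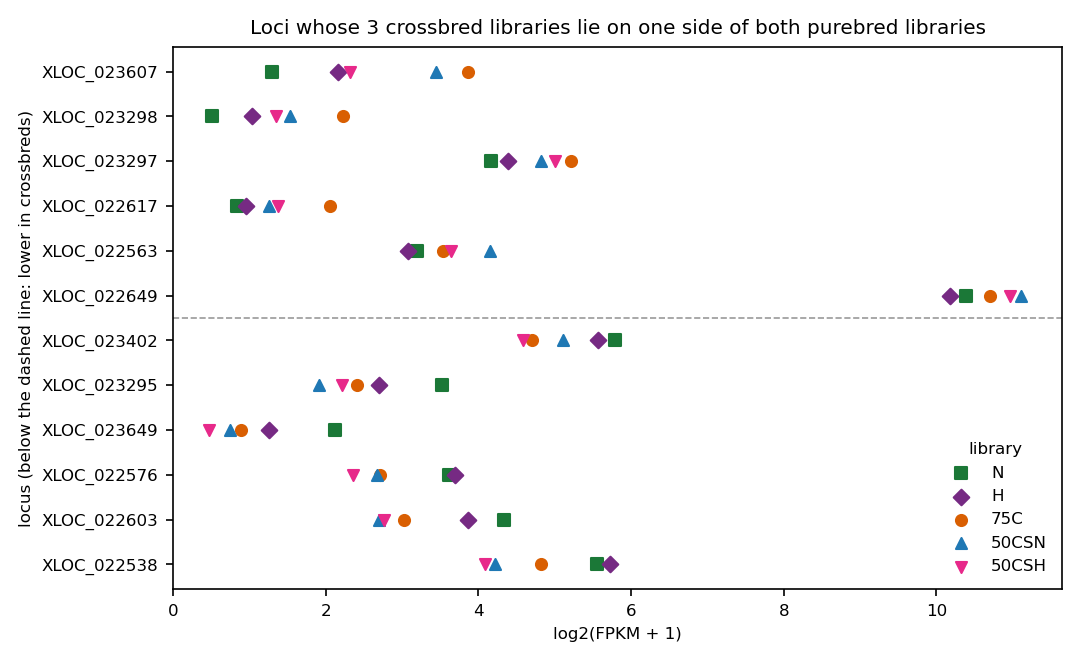
Level in the 5 libraries, as log2(FPKM + 1), of the 6 members with the lowest and the 6 with the highest log2 differences of crossbreds against purebreds among those whose groups do not overlap. No locus shown passed a limma adjusted p of 0.05.

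The authors' deposited table of pairs marked few member transcripts as significant. ENSBTAT00000026215 of XLOC_022603 was marked in N against each of the 3 crossbreds, with a q of 0.043 in the authors' deposited table, and also in their comparison of crossbreds with purebreds, with a q of 0.00927. For N against 75C the authors' deposited table marks 2 of 711 tested member transcripts, and 69 of 37725 in all. For 75C against 50CSH it marks 1 of 688, and 21 of 36557 in all. The 1 is ENSBTAT00000016273 of XLOC_022634, and none is on the run of 5 loci. For crossbreds against purebreds the authors' deposited table marks 5 of 709 member transcripts and 347 of 37091 in all. ENSBTAT00000020355 of XLOC_023305 (110765107 to 110772893) is among them, and the locus was at 11.1 FPKM in N and 9.85 in H, with 5.66 in 75C, 4.96 in 50CSH and 5.14 in 50CSN.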

How the data were processed

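Leukocyte RNA of 5 cattle populations was sequenced, with 1 library a population and no replicates. The submitters' processing notes name Cufflinks 2.2.1.0 and TopHat2 2.0.9 with no roles, and no build or annotation is given in the sources used here. FPKM values were deposited per assembled transcript, normalized by the authors to transcript length and mapped fragments, and the authors' tables add their p-value and q-value to every comparison. Fragment totals are not given, so the depth is unknown. As a rough guide, the ratio of H to library FPKM was taken at 658 low loci with a single transcript. Its most frequent value, an estimate of depth relative to H, was 1.19 (N), 1.16 (50CSN), 1.02 (50CSH) and 0.940 (75C).

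FPKM was summed per locus and compared as log2(FPKM + 1) where a locus averaged 1 FPKM or more. Deposited starts were taken as counted from 0 and raised by 1. The block's coordinates differ from those of the ARS-UCD2.0 gene table, which was used for gene names and order only, and none of the members' Ensembl IDs matched it, so gene lists fixed for named immune genes could not be applied. Pairs were described by loci at least 2-fold apart. The crossbred libraries were set against the purebred ones in limma 3.58.1 (R 4.3.3, mean-variance trend, Benjamini-Hochberg adjustment over all 13871 loci), tested on simulated data. Rules for named loci took all compared loci of the window ending at 110 Mb, the highest of each 1 Mb window and those the authors marked. They also took, in each comparison, the 6 highest and 6 lowest differences among members above 0 in all 5 libraries. Those comparisons were H against N, 50CSH against 50CSN and crossbreds against purebreds (without overlap). Outside the window only some of these loci are described, and the rules did not choose which. Other named loci were chosen after their values were seen. The members, window and lists were chosen with earlier results of these data known. Alternatives covered the pseudocount, filter, scaling, transcripts, gene density, fold, window position and leaving out libraries. Other tools were matplotlib 3.10.9, statsmodels 0.14.6, scipy 1.17.1, pandas 2.3.3, numpy 2.4.6 and Python 3.11.15.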

Additional observations from a re-analysis of the deposited data

How the results depend on the processing

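Each population has 1 library, and FPKM gives no fragment counts, so precision is not known and counts of 2-fold differences depend on the thresholds. No paired analysis was possible because each population has 1 library and no number pairs them. The 8 loci of the window ending at 110 Mb became 5 at a mean of at least 5 FPKM, 13 at 1.5-fold and 3 at 3-fold, and were 7 to 11 under the other settings; XLOC_022601 was under 2-fold with median-of-ratios scaling, quantile normalization and the gene density trend removed. Shares over the whole assembly at the alternative settings are not given, so the counts below show only how far they depend on the setting. Loci 2-fold apart in either direction, by transcript, at 1.5-fold and at 3-fold, numbered as follows. For 75C against 50CSH, 25 (22 higher, 3 lower) became 86 (52 and 34), 49 (38 and 11) and 15; against 50CSN, 16 (12 and 4) became 62 (37 and 25), 41 (32 and 9) and 6; against H, 13 (11 and 2) became 52 (32 and 20), 43 (23 and 20) and 4; against N, 28 (17 and 11) became 80 (42 and 38), 60 (30 and 30) and 11. For H against N, 17 became 69, 35 and 7, and for 50CSH against 50CSN, 17 became 56, 40 and 5. For 50CSN, 26 became 90, 68 and 14 against N and 20 became 73, 49 and 4 against H. For 50CSH, 24 became 82, 63 and 9 against N and 25 became 93, 60 and 7 against H. With a mean of at least 5 FPKM, counts were 16 for 75C against 50CSH, 7 for 75C against H, 9 for 50CSH against 50CSN, 16 and 11 for 50CSN against N and against H, and 16 for 50CSH against H. With a pseudocount of 0.1 they were 26 for 75C against 50CSN, 21 for 75C against H, 26 for H against N, 29 for 50CSH against 50CSN and 44 for 50CSN against N. Without that window, 75C against H gave 6 and 75C against N gave 17. The limma count at an adjusted p of 0.05 was 0 to 1 when each library was left out. The 1 came without H, at XLOC_022692, with a limma adjusted p = 0.000427; N then stands alone for the purebreds and is assumed to vary like the crossbreds. The 67 members at an unadjusted limma p of at most 0.05 became 40 without N and 76 without 75C, the lowest and highest when 1 library was left out, and were 56 to 88 under the other settings. Of 224 alternative values of named pair differences, 215 stayed on the same side of 2-fold, 9 crossed it and 0 reversed; the 165 alternative values of named crossbred differences kept their direction, and none had a limma adjusted p of 0.05 or less.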

Other observations

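Below the minimum of 1 FPKM, the window ending at 110 Mb held 9 more loci, 3 of them listed at 0 in all 5 libraries. Their summed level was 2.06 FPKM in N and 1.63 in H, with 2.19 in 75C, 1.04 in 50CSH and 1.10 in 50CSN. On the log2(FPKM + 1) scale none was 2-fold apart between 75C and 50CSH, but that scale hardly allows it at such low levels. In FPKM, 75C was above 50CSH at 4 of them and below at 2. The values at XLOC_023293, for example, were 0.457 in 75C and 0.0624 in 50CSH. 75C was the highest library at 1 of them. By transcript, 27 of the 52 transcripts of the compared loci there had a mean of at least 1 FPKM, and 75C was above 50CSH in 24 of the 27, with 11 at least 2-fold higher and 1 lower.

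Listed zeros concern 5 compared members, singled out after their values were seen. XLOC_022692 (117615183 to 117619271, ENSBTAT00000062109) was at 980.4 FPKM in N and listed at 0 in the other 4 libraries, and XLOC_022691 on the same span was at 15.2 in N and 10.2 to 18.4 in the others. XLOC_022735, 150 nt long at 120629286 to 120629435, was at 54.8 in N and 44.5 in 75C and listed at 0 in H, 50CSN and 50CSH. XLOC_023639 (120467528 to 120506263) was listed at 0 in both 50% crosses and at 2.45 in N, 4.16 in H and 5.84 in 75C. XLOC_023237 (100891139 to 100912779, ENSBTAT00000059406) was listed at 0 in H and at 2.68 in N, 3.51 in 75C, 13.3 in 50CSN and 7.64 in 50CSH. XLOC_022723 was described above. An exact 0 can be a failed estimate, and no fold is given.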
